A study of Mus musculus with 8 samples.

Results

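Plasma cell genes outside the immunoglobulin loci were read in bone marrow stem and progenitor cells of Zeb1-deleted mice, sorted by the surface protein EpCAM. They are 10 of the 54532 genes in the count table, taken by name: *Jchain*, *Mzb1*, *Derl3*, *Xbp1*, *Prdm1*, *Irf4*, *Pou2af1*, *Sdc1*, *Tnfrsf17* and *Tnfrsf13b*. The set was chosen by readout: the comparison of the EpCAM+ and EpCAM- fractions in these same libraries was known when the genes were selected, so their differences between the fractions are given as a description and no p-value is given for them.

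All mice were C57BL/6 animals of the genotype *Zeb1*fl/fl;*Mx1-Cre*+, 8 to 12 weeks old, that had received pIpC, a synthetic double-stranded RNA that induces the Mx1 promoter and with it Cre recombinase. *Zeb1*, a zinc finger transcription factor that represses epithelial genes, was therefore deleted in both fractions, and no library from a control mouse is part of the comparison. Bone marrow was taken on day 14 after the last dose, and lineage-negative, C-KIT+ and SCA-1+ (LSK) cells were separated into EpCAM+ *Zeb1*-/- and EpCAM- *Zeb1*-/- cells, with 4 libraries of each. The lineage antibodies were against CD3e, CD4, CD8a, B220, MAC1, GR1 and TER119. Mx1-Cre is not restricted to blood cells, since the promoter also answers to interferon in cells of the marrow stroma. RNA was amplified as full-length cDNA with SMART-Seq v4, which suits small cell numbers, and each library is a bulk sample, so that fewer cells of a type and less RNA per cell cannot be told apart.

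Plasma cells are the antibody-secreting end stage of the B lineage. IRF4 and BLIMP1, the product of *Prdm1*, shut down the B cell program, and XBP1 expands the endoplasmic reticulum, where immunoglobulin chains are folded, joined and, for IgM and IgA, linked by the J chain. Long-lived plasma cells lodge in the bone marrow, carry syndecan 1 and receive survival signals through receptors of the TNF receptor family. They lower B220, the B-lineage antigen among the lineage antibodies, as they mature.

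EpCAM+ libraries held 15225714 to 17073546 counts on genes and EpCAM- libraries 14114491 to 15929923, so that 3 counts, used as the floor, correspond to 0.168 to 0.222 CPM (counts scaled to the library size). *Epcam*, the sorting marker, lay at 161 to 234 CPM in EpCAM+ and 1.25 to 8.99 CPM in EpCAM- libraries. *Zeb1* gave 14.8 to 23.7 and 9.49 to 14.0 CPM, a check of little use, since counts over the whole gene do not isolate the deleted sequence and no undeleted sample was analysed here. *Kit*, which encodes the C-KIT of the sort, was present at 244 to 328 CPM in EpCAM+ and 155 to 245 CPM in EpCAM- libraries. *Ly6a*, which encodes SCA-1, ranged from 116 to 351 and from 15.7 to 71.7 CPM. EpCAM+ replicate 1 stood apart from the other EpCAM+ libraries in many of the genes described here, and for values that moved most with it, the value without it is given as well.

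RefSeq promoter windows (GRCm38.p6, the build of the count table) were found for 9 of the 10 genes, each covering 250 bases before to 50 bases after the start of transcription. Those of 6 genes are shown. *Jchain*, *Pou2af1*, *Derl3* and *Tnfrsf17* shared the high library described in the following paragraphs, while *Xbp1* and *Tnfrsf13b*, abundant in both fractions, shared it little. *Irf4* and *Sdc1* shared that library too, but their windows are not shown. Capitals mark matches to CACCTG, an E-box of the kind that ZEB1 binds, and to CCACG, the core of elements bound by XBP1, on either strand (CAGGTG and CGTGG on the other).
Jchain, chr5:88527848-88528147, minus strand: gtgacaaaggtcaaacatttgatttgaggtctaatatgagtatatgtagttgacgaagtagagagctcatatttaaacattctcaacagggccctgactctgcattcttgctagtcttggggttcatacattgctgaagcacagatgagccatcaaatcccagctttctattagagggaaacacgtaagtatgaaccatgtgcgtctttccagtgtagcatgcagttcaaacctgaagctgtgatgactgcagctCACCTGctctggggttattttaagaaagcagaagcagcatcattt
Pou2af1, chr9:51213440-51213739, plus strand: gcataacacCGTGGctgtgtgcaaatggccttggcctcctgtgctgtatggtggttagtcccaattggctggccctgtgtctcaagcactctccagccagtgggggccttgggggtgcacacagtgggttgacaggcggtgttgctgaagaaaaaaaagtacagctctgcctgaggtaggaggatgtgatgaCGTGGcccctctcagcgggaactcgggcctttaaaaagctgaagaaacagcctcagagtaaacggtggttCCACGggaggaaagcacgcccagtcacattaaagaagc
Derl3, chr10:75893148-75893447, plus strand: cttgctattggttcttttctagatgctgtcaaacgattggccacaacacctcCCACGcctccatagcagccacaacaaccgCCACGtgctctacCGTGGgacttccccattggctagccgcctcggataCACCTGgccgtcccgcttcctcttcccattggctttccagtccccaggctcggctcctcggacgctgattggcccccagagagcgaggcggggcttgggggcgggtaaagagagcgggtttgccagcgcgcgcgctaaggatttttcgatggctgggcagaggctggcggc
Tnfrsf17, chr16:11313559-11313858, plus strand: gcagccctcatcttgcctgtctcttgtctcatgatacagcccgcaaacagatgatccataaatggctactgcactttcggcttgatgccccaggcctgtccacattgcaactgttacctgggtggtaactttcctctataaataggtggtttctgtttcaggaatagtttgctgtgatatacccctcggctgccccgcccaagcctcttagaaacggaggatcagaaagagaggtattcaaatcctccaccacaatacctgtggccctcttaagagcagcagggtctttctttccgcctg
Xbp1, chr11:5520391-5520690, plus strand: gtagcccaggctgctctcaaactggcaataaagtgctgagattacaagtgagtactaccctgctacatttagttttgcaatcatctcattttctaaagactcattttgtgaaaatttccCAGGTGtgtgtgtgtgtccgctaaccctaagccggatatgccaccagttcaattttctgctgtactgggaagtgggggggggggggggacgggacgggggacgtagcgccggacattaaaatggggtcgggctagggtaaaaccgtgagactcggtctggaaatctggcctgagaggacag
Tnfrsf13b, chr11:61126505-61126804, plus strand: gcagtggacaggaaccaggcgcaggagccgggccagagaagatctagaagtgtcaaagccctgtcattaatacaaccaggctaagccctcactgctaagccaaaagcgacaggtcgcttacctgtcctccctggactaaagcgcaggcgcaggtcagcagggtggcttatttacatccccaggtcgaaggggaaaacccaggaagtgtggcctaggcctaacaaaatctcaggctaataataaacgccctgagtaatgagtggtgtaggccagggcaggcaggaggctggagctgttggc

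CACCTG occurred in the windows of 4 of the 9 genes (*Jchain*, *Derl3*, *Xbp1* and *Prdm1*) and in 20.2% of all 32851 promoter windows of the table. CCACG occurred in 5 of 9 (*Derl3*, *Irf4*, *Pou2af1*, *Prdm1* and *Sdc1*) and in 32.8% of all windows. In the *Jchain* window the E-box began at position 5 relative to the start site, and in the *Derl3* window it lay at -121, beside CCACG matches at -198, -169 and -156. The *Pou2af1* window held CCACG matches at -241, -58 and 12. The octamer ATGCAAAT, read by the factors that the product of *Pou2af1* binds, was found in no window of the 9 and in 1.74% of all windows, and AAGTGAAAG, a BLIMP1 type of motif, in no window of the 9 and in 0.444% of all windows. The RefSeq start used for *Prdm1* lies 69753 bases from the start of the deposited gene model, so its window belongs to a shorter transcript. Neither of the motifs that matched contains the other.

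*Jchain* (ENSMUSG00000067149, chromosome 5, 88519809 to 88527891, minus strand) encodes the chain that joins IgM pentamers and IgA dimers. It was counted 53916, 3902, 7671 and 3069 times in EpCAM+ replicates 1 to 4, and 4, 0, 4 and 0 times in EpCAM- replicates 1 to 4. In CPM the EpCAM+ libraries read 3525, 221, 429 and 199 and the EpCAM- libraries 0.250, 0, 0.273 and 0. Every EpCAM+ library lay far above every EpCAM- library, and EpCAM+ replicate 1 lay far above the other 3. The mean was 1093 ± 1624 CPM (SD, n = 4) in EpCAM+ and 0.131 ± 0.151 CPM (SD, n = 4) in EpCAM- libraries, and 283 ± 127 CPM (SD, n = 3) in EpCAM+ libraries without replicate 1. Summed counts, scaled to library size, were 7456 times higher in EpCAM+ libraries (exact 95% interval 3784 to 17270, counting error only, since the reads carry no molecular identifiers), and 2074 times without replicate 1 (1052 to 4804). The fitted log2 fold change was 12.87 (SE 1.56), and 10.91 without EpCAM+ replicate 1.

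**Figure D1:**
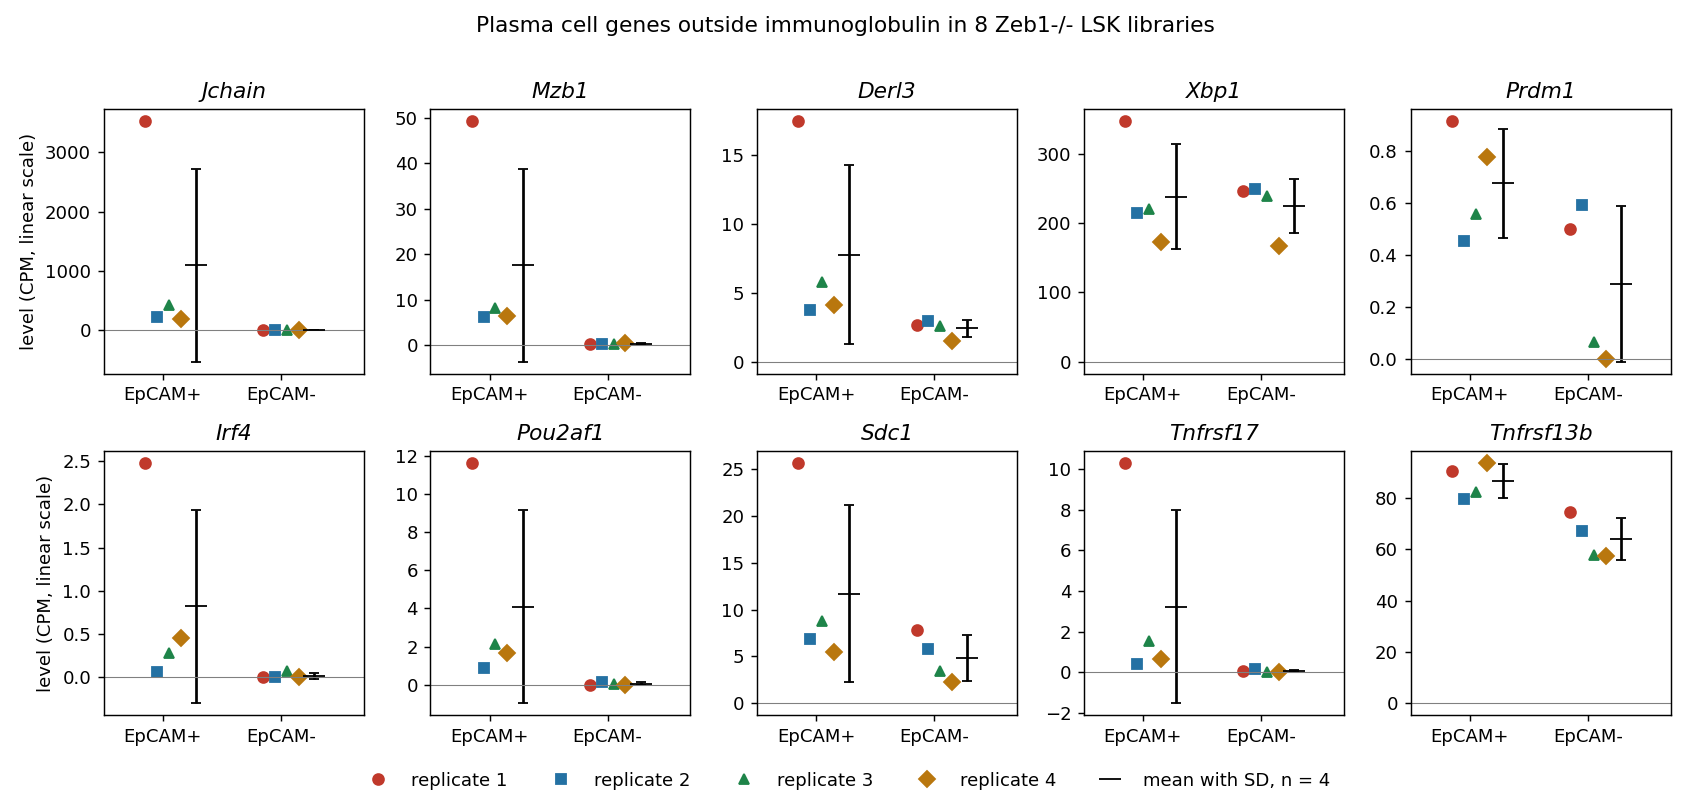
Level of each of the 10 plasma cell genes in the 8 libraries, in CPM on a linear axis of its own for each gene. Points are libraries, with symbol and colour by replicate number, and the bar is the mean with SD (n = 4). EpCAM+ replicate 1 is the highest EpCAM+ library in 9 of the 10 panels, *Tnfrsf13b* being the exception, and *Xbp1* shows overlapping fractions.

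*Mzb1* (ENSMUSG00000024353, chromosome 18, 35647266 to 35649367) encodes a protein of the endoplasmic reticulum that assists assembly of immunoglobulin M. Counts were 754, 109, 146 and 98 in EpCAM+ replicates 1 to 4 and 5, 2, 2 and 6 in EpCAM- replicates 1 to 4. All EpCAM+ libraries were above all EpCAM- libraries, and replicate 1 was again the highest by a wide margin. The mean was 17.5 ± 21.2 CPM against 0.260 ± 0.145 CPM (SD, n = 4 each), and 6.90 CPM in EpCAM+ libraries without replicate 1. Summed counts were 64.2 times higher (exact 95% interval 38.8 to 115), or 26.7 times without EpCAM+ replicate 1 (16.0 to 48.2). The fitted log2 fold change was 6.03 (SE 0.94), and 4.68 without that library.

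*Derl3* (ENSMUSG00000009092, chromosome 10, 75893413 to 75895941), whose product retrieves misfolded proteins from the endoplasmic reticulum of secretory cells, was expressed in both fractions. Counts were 267, 66, 103 and 64 in EpCAM+ replicates 1 to 4 against 43, 40, 38 and 21 in EpCAM- replicates 1 to 4. The fractions did not overlap in CPM, although the lowest EpCAM+ library (3.74 CPM) was close to the highest EpCAM- library (2.96 CPM). The means were 7.78 ± 6.51 and 2.45 ± 0.621 CPM (SD, n = 4 each), and the log2 fold change was 1.66 (SE 0.49), or 0.89 without EpCAM+ replicate 1.

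Among the transcriptional regulators, *Xbp1* (ENSMUSG00000020484, chromosome 11, 5520659 to 5525893), the factor that enlarges the secretory apparatus, was abundant in both fractions. Its level was 347, 214, 220 and 172 CPM in EpCAM+ replicates 1 to 4 and 246, 249, 239 and 167 CPM in EpCAM- replicates 1 to 4. The ranges overlapped, 3 of the 4 EpCAM+ libraries lay under the 3 highest EpCAM- libraries, and replicate 4 was the lowest of each fraction. The means were 238 ± 75.5 and 225 ± 39.2 CPM (SD, n = 4 each). The log2 fold change was 0.08 (SE 0.20) and turned to -0.16 without EpCAM+ replicate 1 and to -0.04 without EpCAM- replicate 4. Counts over the gene do not separate the spliced *Xbp1* mRNA, which encodes the active factor, from the unspliced form.

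*Prdm1* (ENSMUSG00000038151, chromosome 10, 44437177 to 44528501), the gene of BLIMP1, was barely detected. It had 14, 8, 10 and 12 counts in EpCAM+ replicates 1 to 4 and 8, 8, 1 and 0 in EpCAM- replicates 1 to 4. The fractions overlapped, with EpCAM- replicates 1 and 2 at the level of the lower EpCAM+ libraries. *Irf4* (ENSMUSG00000021356, chromosome 13, 30749226 to 30766976) had 38, 1, 5 and 7 counts in EpCAM+ replicates 1 to 4, and the EpCAM- libraries together held 1 count, in replicate 3. EpCAM+ replicate 2 was no higher than that EpCAM- library, so these fractions overlapped as well. The ratio of summed counts was 2.25 for *Prdm1* (exact 95% interval 1.26 to 4.20) and 44.4 for *Irf4* (7.61 to 1787). Without EpCAM+ replicate 1 they were 2.00 (1.07 to 3.86) and 14.7 (2.21 to 626). These intervals cover counting error only and leave out the spread between libraries, so they do not show that either gene differs between the fractions.

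*Pou2af1* (ENSMUSG00000032053, chromosome 9, 51213708 to 51240080) encodes OBF-1, a B-lineage coactivator of octamer-binding factors. It was counted 178, 16, 38 and 26 times in EpCAM+ replicates 1 to 4 and 0, 2, 1 and 0 times in EpCAM- replicates 1 to 4. No EpCAM- library passed the floor of 3 counts, and all 4 EpCAM+ libraries did. The means were 4.09 ± 5.06 and 0.0541 ± 0.0704 CPM (SD, n = 4 each), and summed counts were 74.8 times higher (exact 95% interval 25.3 to 365). Without EpCAM+ replicate 1 the EpCAM+ mean was 1.57 ± 0.616 CPM (SD, n = 3) and the ratio 30.2 (9.97 to 150). The fitted log2 fold change of 6.08 (SE 1.17) depends on the small value that the model adds to such counts and ranged from 4.71 to 7.05 when libraries were left out.

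*Sdc1* (ENSMUSG00000020592, chromosome 12, 8771323 to 8793715) encodes syndecan 1, or CD138, the surface proteoglycan by which plasma cells are usually recognised. It was counted 393, 121, 157 and 85 times in EpCAM+ replicates 1 to 4 and 125, 78, 51 and 31 times in EpCAM- replicates 1 to 4. The fractions overlapped, because EpCAM- replicate 1 (7.80 CPM) exceeded EpCAM+ replicates 2 (6.86 CPM) and 4 (5.51 CPM). The log2 fold change was 1.27 (SE 0.52) and fell to 0.53 without EpCAM+ replicate 1. Between libraries of the same replicate number, however, the EpCAM+ library was the higher in all 4 pairs, by log2 ratios of 1.72, 0.25, 1.33 and 1.27.

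The 2 receptors for the survival factors APRIL and BAFF differed from each other. *Tnfrsf17* (ENSMUSG00000022496, chromosome 16, 11313812 to 11320074), the gene of BCMA, which sustains long-lived plasma cells, had 158, 7, 27 and 10 counts in EpCAM+ replicates 1 to 4 and 1, 2, 0 and 0 in EpCAM- replicates 1 to 4. All EpCAM- libraries were under the floor and the EpCAM+ libraries, led by replicate 1, were above it. The means were 3.22 ± 4.76 and 0.0526 ± 0.0701 CPM (SD, n = 4 each), with a ratio of summed counts of 58.6 (exact 95% interval 19.8 to 287). Without EpCAM+ replicate 1 the EpCAM+ mean was 0.851 ± 0.583 CPM (SD, n = 3) and the ratio 16.6 (5.33 to 83.7).

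*Tnfrsf13b* (ENSMUSG00000010142, chromosome 11, 61126755 to 61149372), the gene of TACI, which is also found on other B cells, was expressed in both fractions. Its level was 90.4, 79.8, 82.4 and 93.8 CPM in EpCAM+ replicates 1 to 4 and 74.5, 67.0, 57.6 and 57.4 CPM in EpCAM- replicates 1 to 4. The fractions did not overlap, the EpCAM+ libraries lay close together, and replicate 1 did not stand out. The means were 86.6 ± 6.59 and 64.2 ± 8.24 CPM (SD, n = 4 each), and the log2 fold change was 0.43 (SE 0.10).

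In all, 6 of the 10 genes had every EpCAM+ library above every EpCAM- library (*Jchain*, *Mzb1*, *Derl3*, *Pou2af1*, *Tnfrsf17* and *Tnfrsf13b*), as did 20.1% of all tested genes. Without EpCAM+ replicate 1 the fractions still overlapped in 4 genes, as with it. The filter on low counts kept 7 of the 10, and *Prdm1*, *Irf4* and *Tnfrsf17* were not tested. *Jchain*, *Mzb1* and *Pou2af1* passed the filter through the EpCAM+ libraries alone (no EpCAM- library reached the filter's 0.652 CPM), and such a gene had to differ. Of the 7, 5 were called at an adjusted p under 0.05 by edgeR, all of them higher in EpCAM+ (*Jchain*, *Mzb1*, *Derl3*, *Pou2af1* and *Tnfrsf13b*), where 42.6% of the 13560 tested genes were called and 21.8% were called higher. Nothing is read from that count, since the contrast selected the genes.

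Set on a scale that allows genes to be compared with each other, CPM per kilobase of gene model, the mean EpCAM+ level was 434 for *Jchain*, 73.4 for *Xbp1*, 30.5 for *Tnfrsf13b* and 19.3 for *Mzb1*. The other 6 genes lay between 0.121 (*Prdm1*) and 3.95 (*Tnfrsf17*). Without replicate 1 *Jchain* led at 112 CPM per kilobase, before *Xbp1* (62.2), *Tnfrsf13b* (30.1), *Mzb1* (7.62), *Derl3* (2.28) and *Sdc1* (1.85), and *Tnfrsf17* (1.05) fell behind these. In EpCAM- libraries the order was led by *Xbp1* (69.3) and *Tnfrsf13b* (22.6), followed at a distance by *Sdc1* (1.27) and *Derl3* (1.23), whose means differed by less than their spread. *Jchain* stood at 0.0519 CPM per kilobase there, level with *Prdm1* at 0.0520.

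EpCAM+ replicate 1 was the highest EpCAM+ library in 9 of the 10 genes, and in 28.9% of all 13560 tested genes. It exceeded the mean of EpCAM+ replicates 2 to 4 more than 2 times in 7 of the 10, against 1.82% of all tested genes, and more than 5 times in 5 of the 10, against 0.162%. These shares were read within the EpCAM+ libraries. The 10 include *Prdm1*, *Irf4* and *Tnfrsf17*, which had too few reads to be tested, so the sets compared are unlike in level. The excess was largest in *Jchain* (12.5 times), *Tnfrsf17* (12.1 times) and *Irf4* (9.43 times), followed by *Pou2af1* (7.40 times) and *Mzb1* (7.15 times). *Derl3* (3.84 times) and *Sdc1* (3.65 times) were intermediate. *Xbp1* (1.72 times), *Prdm1* (1.53 times) and *Tnfrsf13b* (1.06 times) were close to the other libraries. EpCAM- replicate 1, which bears the same number, was the highest EpCAM- library for *Sdc1* and *Tnfrsf13b* but not for the other 8 genes.

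**Figure D2:**
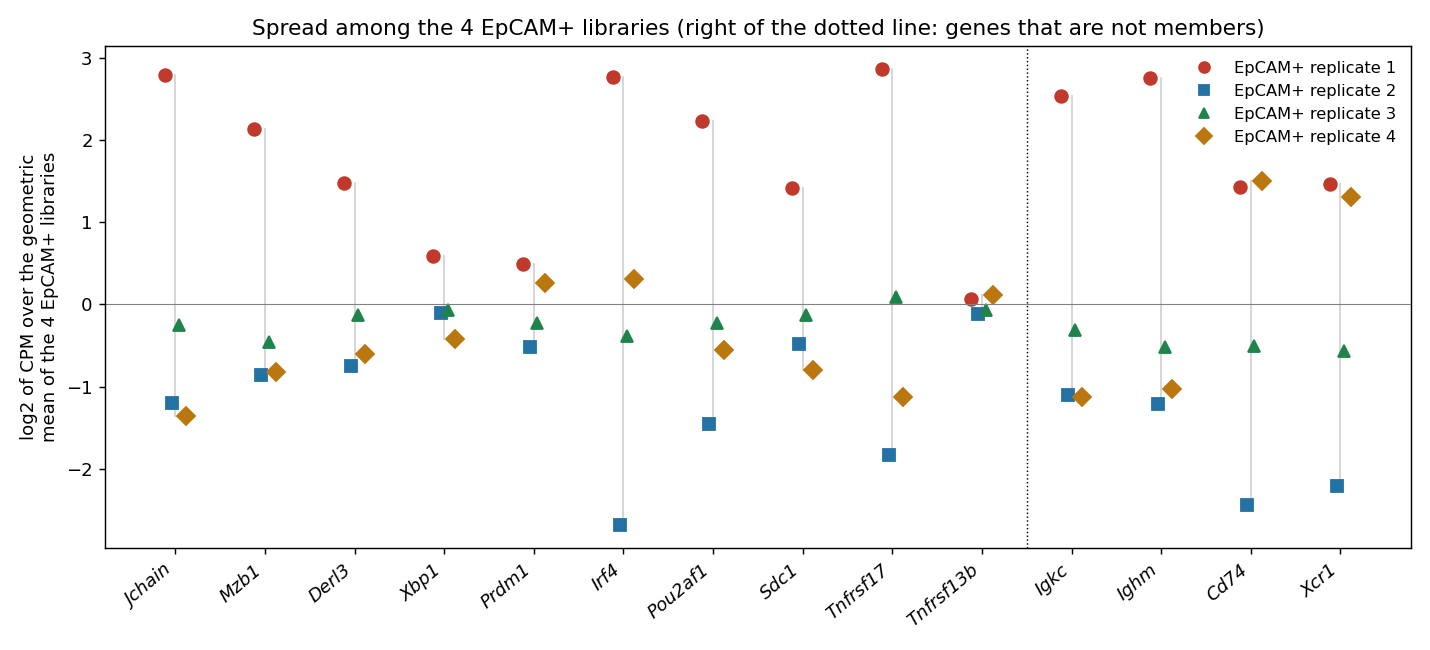
Spread of the 10 plasma cell genes and of 4 other genes among the EpCAM+ libraries, as log2 of CPM over the geometric mean of the 4 EpCAM+ libraries. Each point is 1 library and grey lines join the lowest and highest value of a gene. *Jchain*, *Mzb1*, *Pou2af1*, *Irf4* and *Tnfrsf17* share a high replicate 1 with *Igkc* and *Ighm*, *Tnfrsf13b* hardly varies, and *Cd74* and *Xcr1* are high in replicate 4 as well.

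Across the 4 EpCAM+ libraries several genes varied much less relative to *Jchain* than *Jchain* itself varied. There were 71.5, 35.8, 52.5 and 31.3 counts of *Jchain* for each count of *Mzb1* in replicates 1 to 4, and 341, 557, 284 and 307 for each count of *Tnfrsf17*. The highest of these ratios exceeded the lowest 2.28 and 1.96 times, while *Jchain* itself varied 17.7 times in CPM. *Igkc*, the constant region of the kappa light chain, gave 6.17, 7.92, 7.02 and 8.66 counts for each count of *Jchain*, which is the narrowest range of the ratios computed (1.40 times). *Ighm*, the constant region of IgM, gave 5.68, 5.78, 4.82 and 7.30 (1.51 times). *Cd74*, the invariant chain of MHC class II and a gene of antigen-presenting cells, gave 2.15, 2.35, 4.64 and 40.2 (18.7 times), being as high in replicate 4 as in replicate 1.

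The 5 tested genes whose deviations in log2 CPM over the 4 EpCAM+ libraries came nearest to those of *Jchain* were all immunoglobulin genes: *Ighv11-2* (distance 0.361), *Igkc* (0.367), *Ighm* (0.425), *Igkv14-126* (0.646) and *Ighv9-3* (0.752). Distances are Euclidean, in log2 units, over 13559 genes and 4 libraries that share their amplification and depth. *Mzb1* ranked at place 8 (0.956) and *Pou2af1* at place 10 (1.04), before *Derl3* (place 23) and *Sdc1* (place 25). *Xbp1* came at place 171 and *Tnfrsf13b* at place 5395. The V segments *Ighv11-2* and *Igkv14-126* were counted 10522 and 26939 times in EpCAM+ replicate 1 and not at all in the EpCAM- libraries. Reads of V segments can fall on near-identical family members, so these counts are uncertain.

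Of 13 immunoglobulin constant genes, 8 were tested and 7 were called higher in EpCAM+, where 21.8% of all tested genes were. Of these, 5 passed the filter through the EpCAM+ libraries alone and had to differ (*Ighg2b*, *Ighg2c*, *Iglc1*, *Iglc2* and *Iglc3*), so that the count and the median log2 fold change of 9.59 over the 8 (8.29 without EpCAM+ replicate 1) are a description. *Igkc* also had reads in each EpCAM- library, but 3 of these libraries reached the filter level, too few to pass the filter without EpCAM+ libraries. *Igkc* rose by 12.15 on the log2 scale (SE 1.24, adjusted p = 0.000179 from edgeR), and by 10.44 without EpCAM+ replicate 1. *Iglc1* read 468, 49.4, 35.2 and 26.8 CPM in EpCAM+ replicates 1 to 4 and at most 0.294 CPM in an EpCAM- library, and *Iglc3* read 140, 2.27, 66.1 and 62.1 CPM against at most 0.341 CPM. Lambda constant genes have near-identical copies between which reads may be shared. The summed level of the list was 46800, 3340, 5500 and 3620 CPM in EpCAM+ replicates 1 to 4 and 118 to 246 CPM in EpCAM- libraries. Replicate 1 was thus the highest library here too.

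Other genes typical of plasma cells were called in both directions. Of 20 listed genes 19 were in the table and 16 were tested. The 4 called higher were *Slamf7*, *Hid1*, *Eaf2* and *Tram2*, or 25% of those tested against 21.8% of all genes. Only 1 fell, the elongation factor gene *Ell2* (6.25%, against 20.8% of all tested genes called lower). *Eaf2*, a partner of the elongation factors, had to differ, since it passed the filter through the EpCAM+ libraries alone (5.95, 0.794, 1.17 and 0.908 CPM in replicates 1 to 4, against at most 0.273 CPM in EpCAM- libraries). The *Tram2* call held in 1 of the 8 fits that left out a library. Their log2 fold changes had a median of 0.05. *Slamf7*, a surface receptor of plasma cells and other leukocytes, rose by 5.91 (SE 0.89, adjusted p = 0.000809) and the Golgi protein gene *Hid1* by 2.79 (SE 0.59, adjusted p = 0.00404) on the log2 scale. Only 2 EpCAM- libraries reached the filter level for *Slamf7* and 3 for *Hid1*, too few to pass the filter without EpCAM+ libraries. *Slamf7* read 124, 9.02, 32.1 and 92.0 CPM in EpCAM+ replicates 1 to 4, high in replicate 4 as well, as the dendritic cell gene *Xcr1* was (147, 11.5, 35.8 and 131 CPM). *Ell2*, which favours the secreted form of immunoglobulin heavy chain mRNA, averaged 11.3 ± 2.98 against 21.7 ± 6.82 CPM (SD, n = 4 each). Without EpCAM+ replicate 1 the list had 3 higher and 4 lower genes and a median of -0.21, the lower genes being *Ell2*, *Edem1*, *Creld2* and *Txndc5*.

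Genes for protein folding and export in the endoplasmic reticulum were mostly called lower in EpCAM+ libraries. Of 60 listed genes 59 were tested and 35 fell (59.3%, against 20.8% of all tested genes called lower). The number called higher was 3 (5.08%, against 21.8%). The median over the list was -0.36 on the log2 scale. The oxidase gene *Ero1l* fell by 0.81 on the log2 scale (SE 0.08, adjusted p = 0.000181), *Spcs3*, a subunit of the signal peptidase, fell by 0.74 (SE 0.08, adjusted p = 0.000182) and *Ssr3*, of the translocon-associated complex, fell by 0.57 (SE 0.06, adjusted p = 0.000183). The 3 called higher were *Sec62*, *Sec24d* and *Ero1lb*, of which *Sec62* was called in none of the 8 fits that left out a library (largest adjusted p = 0.123), *Sec24d* in 2 and *Ero1lb* in all 8. The list summed to 13300, 12700, 12300 and 12600 CPM in EpCAM+ replicates 1 to 4 and to 16200 to 18700 CPM in EpCAM- libraries, so that replicate 1, with the most *Jchain*, was only slightly above its group. With upper-quartile scaling the count of lower genes was 30.

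**Figure D3:**
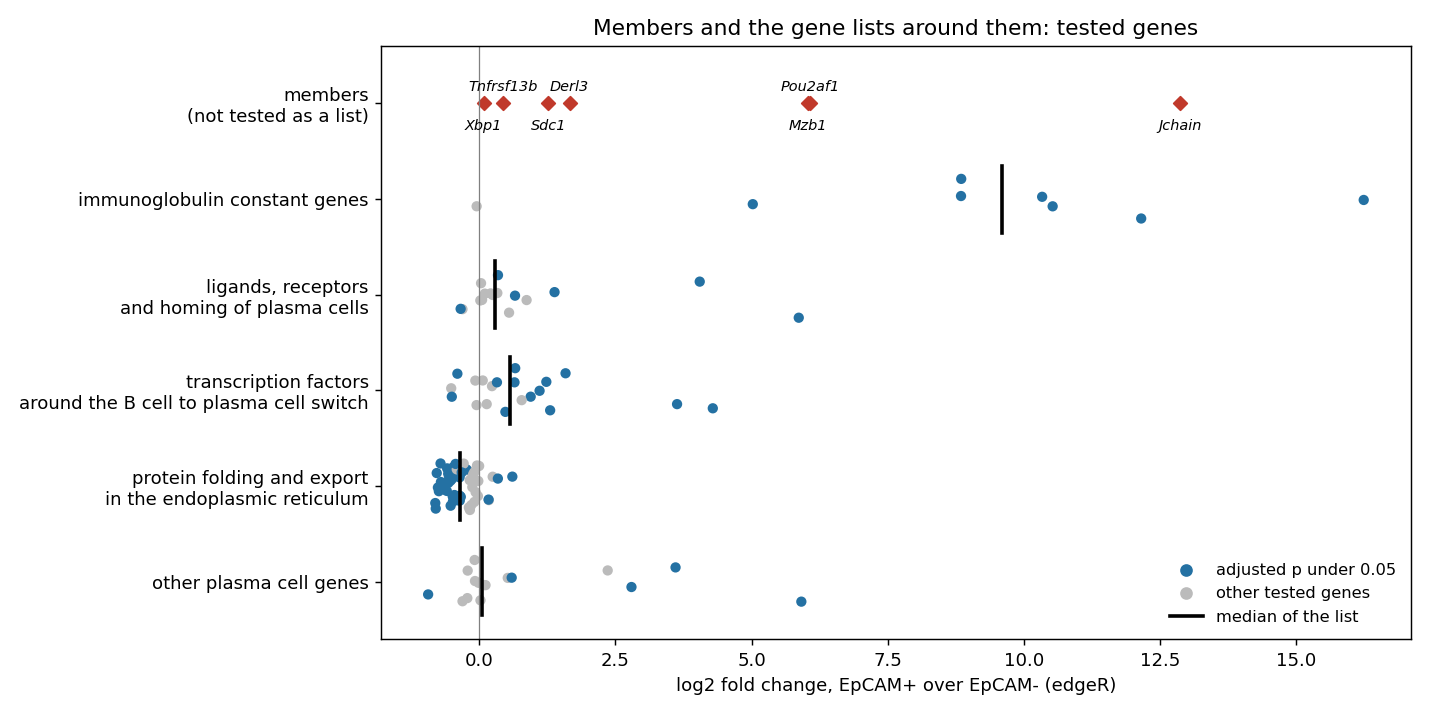
Log2 fold change (EpCAM+ over EpCAM-, edgeR) of the 7 tested plasma cell genes, in red, and of the tested genes of 5 surrounding lists. Blue points passed an adjusted p of 0.05, grey points did not, and the black line is the median of a list. The immunoglobulin constant genes have a median of 9.59, the endoplasmic reticulum genes of -0.36 and the other plasma cell genes of 0.05.

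Among 25 transcription factors around the switch from B cell to plasma cell 20 were tested, 11 rose (55.0%, against 21.8% of all tested genes) and 2, *Myc* and *Tcf3*, fell, with a median log2 fold change of 0.56. *Ets1*, which restrains plasma cell formation, rose by 1.11 (SE 0.17, adjusted p = 0.000982). *Ciita*, the MHC class II transactivator that BLIMP1 represses, rose by 4.29 (SE 0.70, adjusted p = 0.00113), and *Id3*, an inhibitor of E proteins, by 1.58 (SE 0.27, adjusted p = 0.00141) on the log2 scale. *Ciita* was high in EpCAM+ replicates 1 and 4 (61.3, 7.37, 16.7 and 51.7 CPM), unlike *Jchain*. The *Myc* call was lost without EpCAM+ replicate 1 and without EpCAM- replicate 3 or 4 (largest adjusted p = 0.0777). *Pax5*, the keeper of B cell identity, had no read in any of the 8 libraries.

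Of 20 ligands, receptors and homing genes of plasma cells 16 were tested, 5 rose (31.2%, against 21.8% of all tested genes: *Cd86*, *Cxcr3*, *Tnfrsf13c*, *Il21r* and *Mcl1*) and 1 fell, the integrin gene *Itga4* (6.25%, against 20.8%), with a median log2 fold change of 0.29. *Cd86*, a costimulatory ligand, rose by 4.05 (SE 0.55, adjusted p = 0.00049) and the chemokine receptor gene *Cxcr3* by 5.87 (SE 0.91, adjusted p = 0.000932). Both were high in EpCAM+ replicates 1 and 4, with *Cd86* at 41.4, 9.13, 16.6 and 36.7 CPM and *Cxcr3* at 57.4, 4.99, 15.9 and 51.2 CPM. Only 3 EpCAM- libraries reached the filter level for *Cd86* and 1 for *Cxcr3*, too few to pass the filter without EpCAM+ libraries. *Tnfrsf13c*, the gene of the BAFF receptor and thus the third receptor of this ligand family, rose by 1.38 (SE 0.32, adjusted p = 0.0063), from 4.63 ± 2.19 to 12.1 ± 1.52 CPM (SD, n = 4 each). The *Itga4* call was lost without EpCAM+ replicate 2 or 3, and the *Il21r* call without EpCAM- replicate 3. The 3 genes with the smallest adjusted p in each list passed the threshold in each of the 8 fits that left out 1 library. For *Eaf2*, *Iglc1* and *Iglc3*, which had to differ, this adds nothing. *Igkc*, *Slamf7*, *Hid1*, *Cd86* and *Cxcr3* also needed EpCAM+ libraries to pass the filter, so for them it adds little.

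Markers of other cell types moved between the fractions as well, where 21.8% of all tested genes were called higher and 20.8% lower. Of 15 B cell markers 7 were tested and *Cd79a* and *Ms4a1* rose, the defining marker *Pax5* was at 0, and the summed level was 79.6 to 131 CPM in EpCAM+ and 53.7 to 91.0 CPM in EpCAM- libraries. *Cd79b*, which was not called, made up most of that sum in each library. *Cd79a* read 36.4, 1.98, 4.92 and 4.93 CPM in EpCAM+ replicates 1 to 4, highest in replicate 1 as *Jchain* was. *Ms4a1* read 12.8, 1.19, 2.29 and 7.26 CPM there. Of 11 conventional dendritic cell markers 10 were tested and 9 rose. The sum was 16600, 1530, 4610 and 17200 CPM in EpCAM+ replicates 1 to 4 against 349 to 659 CPM in EpCAM- libraries. The MHC class II genes *Cd74*, *H2-Aa*, *H2-Ab1* and *H2-Eb1* made up most of that sum in each EpCAM+ library. *Flt3*, also listed with the stem and progenitor cell genes, read 136 to 259 CPM in EpCAM- libraries. *Zbtb46* was tested and not called (8.54 ± 6.52 against 10.4 ± 6.10 CPM, SD, n = 4 each). Of 11 plasmacytoid dendritic cell markers 6 were tested, *Ccr9*, *Ly6d* and *Runx2* rose and *Cox6a2* fell, *Klk1* was at 0, and the sums were 261 to 338 and 199 to 283 CPM. *Bst2* and *Tcf4* made up most of these sums, while *Ly6d* read 49.6, 7.54, 6.93 and 5.25 CPM in EpCAM+ replicates 1 to 4. Some called markers had to differ, among them *Ms4a1*, *Clec9a* and *Ccr9*. They stayed under the filter level in EpCAM- libraries (at most 0.137, 0.562 and 0.375 CPM). The conventional dendritic cell sum was similar in EpCAM+ replicates 1 and 4, where *Jchain* was at its highest and its lowest EpCAM+ level. Plasmacytoid dendritic cells are known to express *Mzb1* and *Derl3* as well. The part of any of these cell types in the levels of *Jchain* and the others was not tested.

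**Figure D4:**
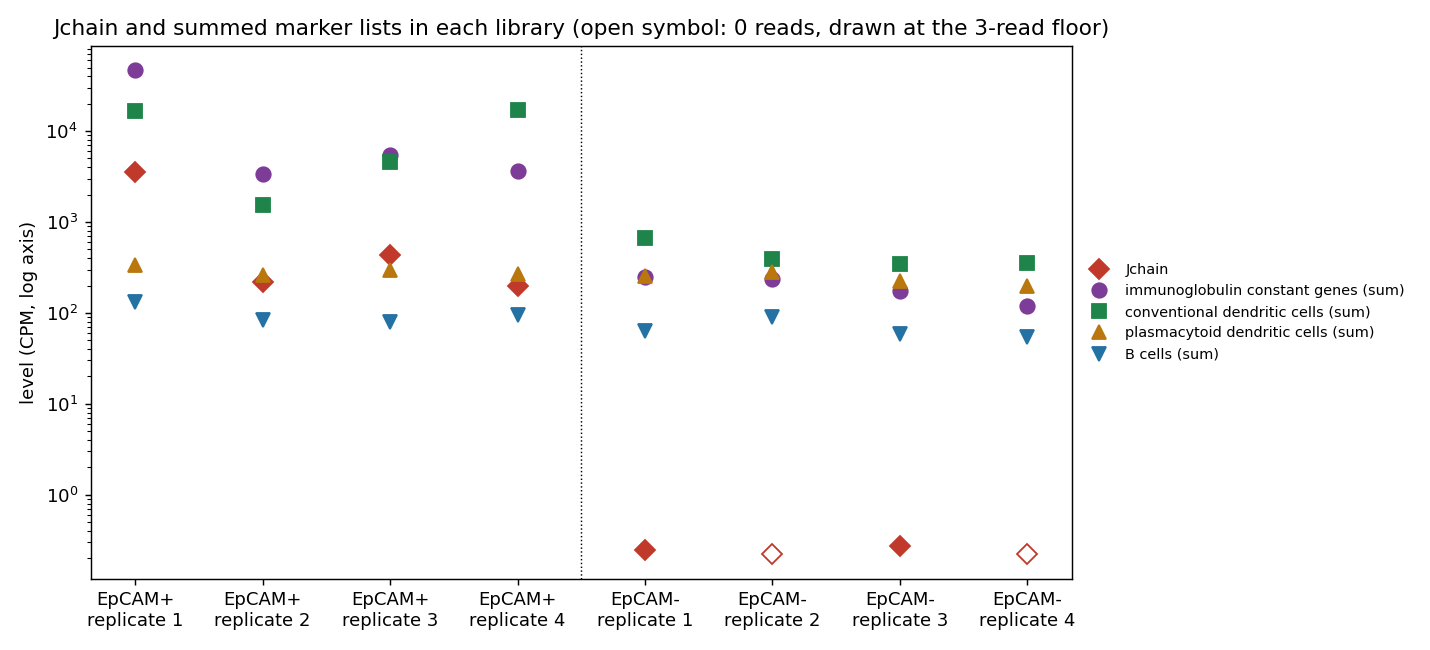
Level of *Jchain* and summed levels of 4 gene lists in each of the 8 libraries, in CPM on a log axis. Each point is 1 library, and an open symbol is a library with 0 reads, drawn at the floor of 3 counts. *Jchain* and the immunoglobulin constant genes peak in EpCAM+ replicate 1. The conventional dendritic cell sum, in EpCAM+ libraries mostly MHC class II genes, is as high in replicate 4 as in replicate 1. The B cell sum stays between 53.7 and 131 CPM.

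Of the other marker lists, 9 of 11 stem and progenitor cell genes rose (2650 to 3070 CPM against 1370 to 1990 CPM in sum), as did the 4 tested epithelial genes *Cdh1*, *Krt8*, *Krt18* and *Cldn7* (203 to 254 against 79.1 to 105 CPM), with *Krt19* at 0. Over all tested genes 21.8% rose and 20.8% fell. The neutrophil genes *Elane*, *Mpo*, *Prtn3* and *Ctsg* fell (4 of 9, 1100 to 1850 against 11900 to 18600 CPM in sum). *Mpo* made up most of the sum in each EpCAM- library, and *S100a8*, *S100a9*, *Ltf*, *Camp* and *Ngp* were not called. The mast cell and basophil genes *Cpa3*, *Mcpt8* and *Ms4a2* fell as well (3 of 5, 68.3 to 91.2 against 231 to 479 CPM). Of 7 monocyte and macrophage genes *Lyz2* rose and *Csf1r* and *Adgre1* fell (640 to 954 against 509 to 1270 CPM). Of 9 T cell genes 2 were tested and both, *Cd4* and *Lck*, rose (53.2 to 67.1 against 17.1 to 29.1 CPM). *Lck* made up most of these sums in each library. *Cd3d*, *Cd3e*, *Cd3g*, *Cd8a*, *Cd8b1*, *Trac* and *Bcl11b* had too few reads to be tested. *Gp9* was the gene that rose among 5 tested megakaryocyte genes (128 to 367 against 83.5 to 286 CPM), and *Emcn* among 2 tested stromal and endothelial genes (28.1 to 41.2 against 26.2 to 36.5 CPM), with *Col1a1* at 0. The tested natural killer cell gene was not called (632 to 794 against 685 to 884 CPM for the list).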

How the data were processed

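RNA-Seq was performed on 4 EpCAM+ and 4 EpCAM- *Zeb1*-/- LSK samples, from 4 mice per fraction per the labels. The submitters' processing notes name STAR 2.6.1d, featureCounts 1.5.0-p3, DESeq2 1.20.0 and GRCm38.p6, while the strandedness is not given in the sources used here. The authors deposited whole-number read counts per gene without normalization, which all values here start from. The deposited gene length column was used for levels per kilobase, and it matches the exon unions of GENCODE M21 for these genes other than *Mzb1* (905 bases against 1215). The deposited FPKM values and the columns of the authors' comparisons (fold changes with p-values, between the fractions and between single libraries) were not used.

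Genes were filtered with filterByExpr, scaled by TMM and tested with edgeR 4.0.16 (quasi-likelihood, two-sided, R 4.3.3), with Benjamini-Hochberg adjustment over 13560 genes and a threshold of 0.05. Calls of listed genes are those of that fit. The SE of a log2 fold change was derived from it, as the absolute log2 fold change over the square root of the quasi-likelihood F statistic. Intervals of summed counts are exact (Clopper-Pearson) and cover counting error only. The fit was checked on simulated data. The 10 genes and all lists were chosen with earlier results of these data known. Named besides the 10 were up to 3 genes per list with the smallest adjusted p, list genes without reads, and the 5 genes nearest to *Jchain*. Other genes, in lists where 5 or fewer were called and among the sort and cell type markers, were named after their values were seen. A few listed genes are not reported here. Overlapping models (*Gm12269* on the opposite strand of *Tnfrsf13b*, *Gm47828* within *Pou2af1*) held 0 and 1 counts.

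The replicate numbers pair the samples: deviations from the fraction means correlated across genes at 0.205 to 0.356 within the 4 same-number pairs and at -0.216 to 0.0396 otherwise. What the numbers share is not stated, and the pairing enters as an alternative. No 2 libraries of a fraction were duplicates (chi-square per degree of freedom 10.3 to 97.4). Alternatives were DESeq2 1.42.0, 3 other scalings, no filter beyond 1 count, the replicate block and 8 fits that leave out 1 library.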

Additional observations from a re-analysis of the deposited data

Results flagged for a closer look

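In groups of 4 libraries the gap of the highest or lowest library to its neighbour, as a share of the range, was compared with Dixon's 95% critical value for the 10 plasma cell genes and the named genes of the lists. Of 50 groups 14 passed it, and in 10 of the 14 the library was EpCAM+ replicate 1 as the highest. The nominal rate of about 1 in 20 holds for independent groups. These groups share their libraries, so 1 deviating library is counted many times and the count cannot be set against that rate. Among the 10 plasma cell genes this was so for 7 EpCAM+ groups, with shares of 0.931 for *Jchain*, 0.954 for *Mzb1*, 0.853 for *Derl3*, 0.836 for *Irf4*, 0.887 for *Pou2af1*, 0.838 for *Sdc1* and 0.888 for *Tnfrsf17*. The same library stood out for *Igkc* (0.936), *Iglc1* (0.949) and *Eaf2* (0.926).

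In EpCAM- libraries, replicate 4 was the low one for *Xbp1* (0.869), and replicate 3 held the only *Irf4* count of the group (1.0). Replicate 1 was the high one for *Ets1* (0.844) and *Slamf7* (0.8292).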

How the results depend on the processing

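Counts of called genes over both directions stayed within 1.5 times of those reported, for the 10 genes and for each of the 5 lists, under all 14 alternatives. By direction they moved more: over the alternatives, 3 to 6 other plasma cell genes were called higher and 1 to 4 lower, and 1 to 3 endoplasmic reticulum genes were called higher and 30 to 38 lower. In the fits that leave out 1 library, 5 to 6 of the 10 plasma cell genes were called, 4 to 7 other plasma cell genes, 33 to 38 endoplasmic reticulum genes, 10 to 13 transcription factors, 5 to 7 ligand, receptor and homing genes and 7 to 8 immunoglobulin constant genes. With the replicate block (paired fit), 6 of the 10 genes were called, *Sdc1* being added (as also without EpCAM+ replicate 4 or EpCAM- replicate 1), and the log2 fold changes were 12.93 for *Jchain*, 5.91 for *Mzb1*, 5.96 for *Pou2af1*, 1.45 for *Derl3*, 1.16 for *Sdc1*, 0.44 for *Tnfrsf13b* and 0.05 for *Xbp1*. *Derl3* was not called without EpCAM- replicate 4. Without EpCAM+ replicate 1, *Xbp1* turned to -0.16 and *Jchain* fell to 10.91, and *Xbp1* was -0.04 without EpCAM- replicate 4. The ranges over the fits that leave out 1 library were 10.91 to 13.40 for *Jchain*, 4.68 to 6.36 for *Mzb1*, 4.71 to 7.05 for *Pou2af1*, 0.89 to 1.89 for *Derl3*, 0.53 to 1.60 for *Sdc1*, 0.38 to 0.51 for *Tnfrsf13b* and -0.16 to 0.21 for *Xbp1*. The median of the other plasma cell genes was under 0 also without EpCAM- replicate 3 or 4.

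The 5 genes that DESeq2 called were others in part, *Derl3*, *Irf4*, *Pou2af1*, *Tnfrsf17* and *Tnfrsf13b*, and it gave no adjusted p for *Jchain* and *Mzb1*. Scaling moved the split of calls over all genes, 51.2% of them being higher with TMM, 63.6% with upper-quartile scaling and 62.7% with library totals, while the median log2 fold change of all genes went from 0.02 to 0.11 and 0.10. The number of libraries and the few reads of *Prdm1*, *Irf4* and *Tnfrsf17* limit what can be said of these genes.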
